A study of Mus musculus with 6 samples.

Results

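A set of 9 genes that interferons induce was followed through the RNA-seq counts of mouse kidney tubule cells: Stat2, Irf7, Irf9, Isg15, Ifit1, Ifit3, Oasl2, Rsad2 and Bst2. They were chosen by name as well-known targets of interferon, and they are 9 of the 46095 genes in the count table. All 9 had enough counts to be tested, among 14611 genes that did. The data came from primary renal tubular epithelial cells (PTECs) isolated from kidneys of C57 mice at 10 weeks of age, with 3 mice per genotype. Under the label VHL-KO (mice 1, 2 and 4, called replicates here) the von Hippel-Lindau gene is deleted by Cre recombinase under the Ksp (Cdh16) promoter, which is active in kidney tubule epithelium. Under the label VHL-KO;SETD2-KO (mice 2, 3 and 4) the same Cre also deletes the histone H3 lysine methyltransferase gene Setd2. Both genotypes therefore lack VHL, no library is from a mouse with intact VHL, and any cell that does not express Cre keeps its floxed alleles. No mouse was labelled as treated with interferon or infected.

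Type I and type III interferons bind receptors that signal through the kinases JAK1 and TYK2. These lead to the assembly of a complex called ISGF3, which contains STAT2 and IRF9. The complex enters the nucleus and binds interferon-stimulated response elements (ISREs) in the promoters of its target genes. Among the 9 genes, Stat2 and Irf9 encode subunits of ISGF3, and Irf7 encodes a factor that drives further interferon transcription. The others encode antiviral effectors. ISG15 is a ubiquitin-like modifier, IFIT1 and IFIT3 bind foreign RNA, OASL2 belongs to the oligoadenylate synthetase family, RSAD2 (viperin) makes a chain-terminating nucleotide, and BST2 (tetherin) holds budding virions at the cell membrane. Tubule epithelium, endothelium and leukocytes can all express these genes, and in bulk RNA a change in the number of such cells cannot be told apart from a change in RNA per cell.

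The promoter stretches below are shown because they carry the element that links these genes to ISGF3. Each comes from the RefSeq window (250 bases before to 50 after the annotated start, build GRCm38.p6), is read 5′ to 3′ on the gene's own strand, and has in capitals every match to the ISRE core, which was searched as GAAA, any 2 bases, GAAA, and as its reverse complement TTTC, any 2 bases, TTTC. The coordinates are chr10:128270251-128270310 (plus strand) for Stat2, chr4:156200850-156200921 (minus) for Isg15, chr19:34640760-34640838 (plus) for Ifit1, chr19:34583348-34583441 (plus) for Ifit3, chr12:26456538-26456597 (minus) for Rsad2 and chr8:71537562-71537627 (minus) for Bst2. All 6 stretches lie upstream of the start of their gene's longest coding transcript.
Stat2: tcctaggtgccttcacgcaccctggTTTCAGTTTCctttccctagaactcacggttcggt
Isg15: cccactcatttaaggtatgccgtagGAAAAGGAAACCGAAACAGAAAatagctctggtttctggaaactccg
Ifit1: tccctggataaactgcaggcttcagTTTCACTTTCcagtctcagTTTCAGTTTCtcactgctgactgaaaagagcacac
Ifit3: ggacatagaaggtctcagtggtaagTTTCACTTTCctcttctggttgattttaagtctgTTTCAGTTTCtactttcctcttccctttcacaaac
Rsad2: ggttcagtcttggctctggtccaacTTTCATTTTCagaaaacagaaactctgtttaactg
Bst2: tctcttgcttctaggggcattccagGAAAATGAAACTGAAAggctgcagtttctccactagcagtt

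Promoters of 6 of the 9 genes (66.7%) held the ISRE core on either strand, against 3.99% of the 27025 genes with a RefSeq window and 3.44% of the 32851 windows. Isg15 had 3 overlapping matches, Ifit1 and Ifit3 had 2 separate ones each, Bst2 had 2 overlapping ones, and Stat2 and Rsad2 had 1 each. These letters are not in the windows of Irf7, Irf9 or Oasl2. Both windows of Irf9 lie inside the gene model given below, so the bases before the start of that model were not searched. The core of the gamma-activated site, TTCNNNGAA, an element of genes that respond to interferon gamma, was found in 8.30% of all windows and, among the 9 genes, in Bst2, where it overlapped the first ISRE match. Among the other genes of the interferon pathway, 28 of 80 with a window (35.0%) held the ISRE core, and 9 of 10 interferon-induced GTPase genes did.

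**Figure D1:**
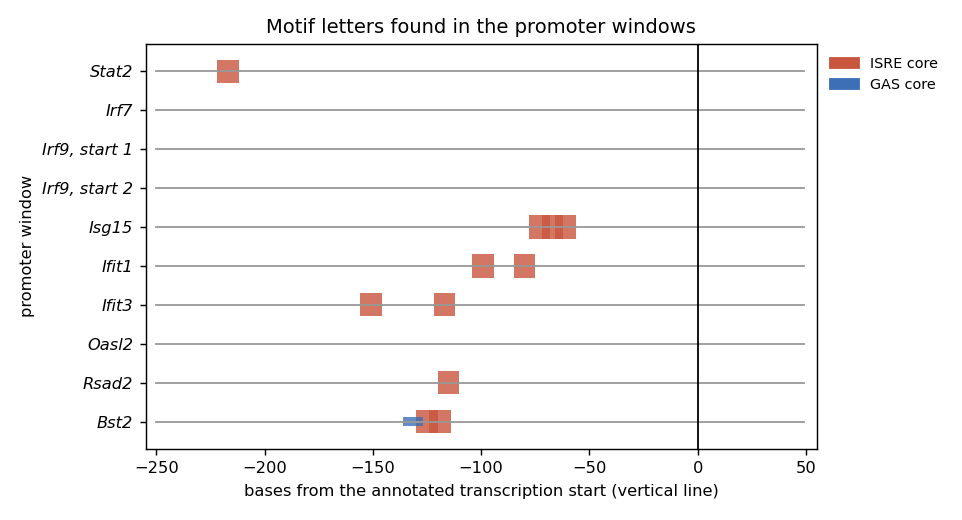
Matches to the ISRE core and the gamma-activated site (GAS) core in the promoter windows of the 9 genes, with the distance in bases from the annotated start (vertical line) on the x axis and a row for each window, of which Irf9 has 2. Matches are drawn in the windows of 6 genes, all upstream of the start, and the rows of Irf7, Irf9 and Oasl2 are empty.

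The 9 genes lie on 8 chromosomes. In the GENCODE vM21 annotation of GRCm38 their longest coding transcripts come from chr10:128270559-128292849 for Stat2 (plus strand, 24 exons), chr7:141262706-141266481 for Irf7 (minus, 10 exons) and chr14:55603571-55610030 for Irf9 (plus, 10 exons). Those of the effectors come from chr4:156199424-156200818 for Isg15 (minus, 2 exons), chr5:114896936-114912234 for Oasl2 (plus, 6 exons), chr12:26442746-26456452 for Rsad2 (minus, 6 exons) and chr8:71534255-71537456 for Bst2 (minus, 5 exons). Ifit3 (chr19:34583531-34588731) and Ifit1 (chr19:34640871-34650009) are neighbours on the plus strand with 2 exons each. The Irf7 model overlaps Phrf1 on the opposite strand and the Irf9 model overlaps Rnf31 on the same strand, so reads could be assigned differently under another counting rule. Ifit3 has a near-identical copy, Ifit3b, with 24, 31 and 17 counts under the VHL-KO label and 58, 85 and 27 under the VHL-KO;SETD2-KO label, so the split of reads between both copies is uncertain.

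Libraries held 11168552 to 17883466 counts, and 3 counts, the smallest signal taken as detectable, correspond to 0.159 to 0.280 CPM, which are counts scaled to a common library size with TMM factors of 0.830 to 1.16. The library labelled VHL-KO replicate 4 stood apart: its Spearman correlations across genes with the other 5 libraries were 0.717 to 0.765, against 0.937 to 0.986 among the others, and mitochondrial genes took 11.3% of its counts against 25.9% to 36.4%. Setd2, the gene that separates the labels, had 1179, 799 and 132 counts under VHL-KO and 1499, 1019 and 1429 under VHL-KO;SETD2-KO, so that total transcript counts did not show the labelled deletion (log2 fold change 0.52, SE 0.64, adjusted p = 0.787, edgeR). The genotypes below are therefore those of the labels. In separate assays (western blot, staining and RT-qPCR), the paper reports lower VHL, SETD2 and histone mark H3K36me3 in renal tubules. Vhl, deleted in both, had 139 to 317 counts in each library. The summed level of 7 proximal tubule markers was 10887 to 20886 CPM under VHL-KO and 4638 to 6682 CPM under VHL-KO;SETD2-KO, and none of these markers was at 0 in every library. Collecting duct markers summed to 551 CPM in VHL-KO replicate 4, against 51.0 and 73.9 CPM in VHL-KO replicates 1 and 2. In the same order, thick limb markers summed to 3056, 726 and 1302 CPM, and fibroblast markers to 389, 99.5 and 83.7 CPM. Most of the thick limb sum of VHL-KO replicate 4 was Umod (2950 CPM). Slc12a1 (79.1 CPM) and Kcnj1 (19.8 CPM) were lower there than in replicates 1 and 2, and Cldn16 was higher. Within the proximal tubule list, Slc34a1 alone held 14181 CPM there. Lrp2, Cubn and Slc5a12 were lower in that library than in replicates 1 and 2, while Slc5a2, Slc22a6 and Aqp1 were higher. The endothelial sum of VHL-KO replicate 4 was below those of replicates 1 and 2, and its podocyte sum lay between theirs. Ddx3y, a Y-linked gene, had 0 counts in VHL-KO;SETD2-KO replicate 3 and 126 to 1618 in the others.

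None of the 9 genes was called higher or lower between the genotypes with all 6 libraries. A call needed an unadjusted p under 0.05 in edgeR's quasi-likelihood test and a change of at least 1.5-fold, which 2.66% of all tested genes met as higher and 4.68% as lower. With p adjusted over all genes, 0% were higher and 0.00684% lower. The number of the 9 genes called was also 0 with DESeq2 and with limma-voom, and the number with an unadjusted edgeR p under 0.05 at any size was 0. Of the 9 fitted values, 7 were positive (higher under VHL-KO;SETD2-KO) and 2, Irf7 and Isg15, were negative. Their median log2 fold change was 0.34, beside 0.0095 over all tested genes. Without VHL-KO replicate 1, the lowest library for 7 of them, the median was 0.094, beside 0.033 over all genes. The libraries of both genotypes did not overlap for 1 gene, Ifit1, which was higher under VHL-KO;SETD2-KO; 9.62% of all tested genes were separated in that direction and 11% in the other.

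Without VHL-KO replicate 4, all 9 values were positive and their median was 0.62, beside 0.035 over all genes. Irf7, Ifit1 and Bst2 were then called higher on the unadjusted p, 3 of 9 where 8.29% of all 15000 tested genes were higher and 7.15% lower. On the adjusted p the number of the 9 genes called was 0 in edgeR, as for 0% of all genes higher and 0.00667% lower. Irf7, Ifit1, Oasl2 and Bst2 did not overlap between the 2 remaining VHL-KO libraries and the VHL-KO;SETD2-KO libraries, 4 of 9 where 20.5% of all genes were separated upwards and 21.2% downwards. Leaving out this library therefore turned the direction of Irf7 and Isg15 and changed which genes were called.

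**Figure D2:**
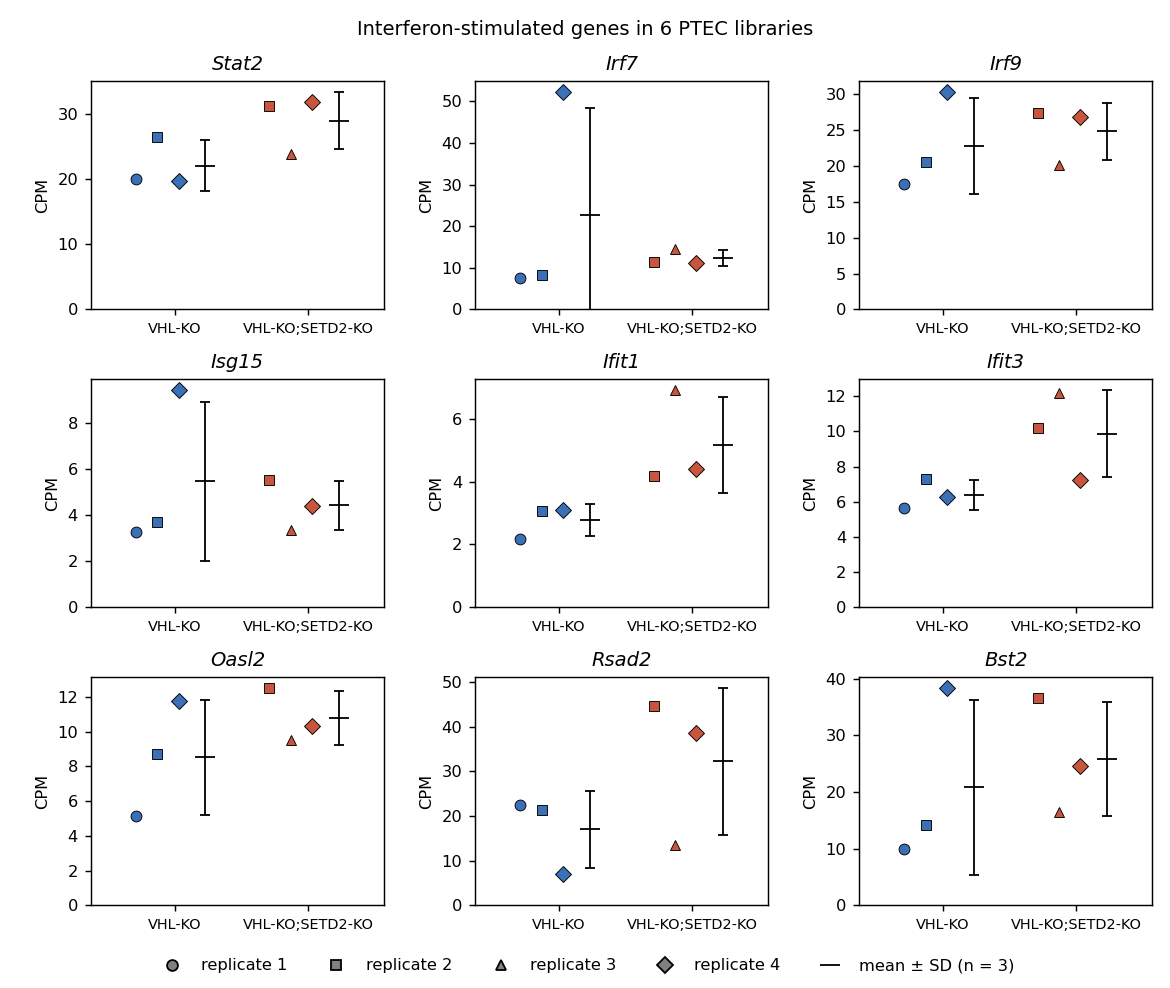
Level of each of the 9 genes in CPM (y axis, from 0) in the 3 libraries of each genotype label, with the mean and SD (n = 3) beside the points; the SD bar of Irf7 under VHL-KO runs past 0 and is drawn to the axis. VHL-KO replicate 4 (blue diamonds) is the highest of the 6 libraries for Irf7, Irf9, Isg15 and Bst2 and the lowest for Stat2 and Rsad2.

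Among the transcription factors, Stat2 had 20.0, 26.6 and 19.7 CPM in VHL-KO replicates 1, 2 and 4, and 31.2, 23.9 and 31.9 CPM under VHL-KO;SETD2-KO, in the order 2, 3 and 4 that is kept throughout. Replicate 3 of the second genotype fell below VHL-KO replicate 2, so the genotypes overlapped. The means were 22.1 ± 3.89 and 29.0 ± 4.42 CPM (SD, n = 3 each), a log2 fold change of 0.39 (SE 0.36, adjusted p = 0.728, edgeR). Irf9, which encodes a DNA-binding subunit of ISGF3, had 17.4, 20.6 and 30.3 CPM under VHL-KO and 27.4, 20.2 and 26.9 CPM under VHL-KO;SETD2-KO. Its highest library was VHL-KO replicate 4, and its log2 fold change was 0.12 (SE 0.39, adjusted p = 0.915). Without that library it was 0.38 (SE 0.19, adjusted p = 0.319).

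Irf7 showed the largest SD of the 9 genes in CPM. It had 124, 90 and 560 counts under VHL-KO, or 7.50, 8.31 and 52.3 CPM. Under VHL-KO;SETD2-KO it had 214, 257 and 178 counts, or 11.4, 14.4 and 11.1 CPM. VHL-KO replicate 4 alone lay above every VHL-KO;SETD2-KO library, and replicates 1 and 2 lay below all 3. With all libraries the log2 fold change was -0.88 (SE 0.75, adjusted p = 0.708, edgeR), from means of 22.7 ± 25.6 and 12.3 ± 1.85 CPM (SD, n = 3 each). Without VHL-KO replicate 4 it was 0.64 (SE 0.21, unadjusted p = 0.0220, adjusted p = 0.182), the opposite direction.

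Isg15, whose product is attached to other proteins during an interferon response, was counted 54, 40 and 101 times under VHL-KO and 104, 60 and 70 times under VHL-KO;SETD2-KO. In CPM these were 3.27, 3.69 and 9.43 against 5.52, 3.37 and 4.38. VHL-KO replicate 4 was again the highest, and without it the remaining values still overlapped. The log2 fold change was -0.30 (SE 0.54, adjusted p = 0.845, edgeR) with all libraries and 0.35 (SE 0.32, adjusted p = 0.579) without that one.

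Ifit1 and Ifit3 differed from the other effectors in that VHL-KO replicate 4 lay close to the other VHL-KO libraries. Ifit1 had 36, 33 and 33 counts under VHL-KO and 79, 123 and 70 under VHL-KO;SETD2-KO, which are 2.18, 3.05 and 3.08 CPM against 4.19, 6.91 and 4.38 CPM. All 3 VHL-KO;SETD2-KO libraries lay above all 3 VHL-KO libraries, with means of 5.16 ± 1.52 and 2.77 ± 0.512 CPM (SD, n = 3 each). The log2 fold change was 0.90 (SE 0.46, unadjusted p = 0.0840, adjusted p = 0.625, edgeR). It was 0.99 (SE 0.37, unadjusted p = 0.0363, adjusted p = 0.219) without VHL-KO replicate 4. Ifit3 had 5.63, 7.30 and 6.25 CPM under VHL-KO and 10.2, 12.2 and 7.26 CPM under VHL-KO;SETD2-KO. The lowest VHL-KO;SETD2-KO library, replicate 4, lay just under VHL-KO replicate 2. The log2 fold change of Ifit3 was 0.63 (SE 0.40, adjusted p = 0.637), and 0.62 (SE 0.29, adjusted p = 0.293) without VHL-KO replicate 4.

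Oasl2 had 5.14, 8.68 and 11.8 CPM under VHL-KO and 12.5, 9.50 and 10.3 CPM under VHL-KO;SETD2-KO. VHL-KO replicate 4 lay within the range of the second genotype, while replicates 1 and 2 lay below it. Its log2 fold change was 0.34 (SE 0.44, adjusted p = 0.796, edgeR) with all libraries and 0.65 (SE 0.29, adjusted p = 0.274) without VHL-KO replicate 4. Without VHL-KO replicate 1 it was 0.094.

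Rsad2 varied within each genotype. It had 373, 232 and 76 counts under VHL-KO (22.6, 21.4 and 7.10 CPM) and 841, 240 and 616 counts under VHL-KO;SETD2-KO (44.6, 13.5 and 38.6 CPM). Replicates 2 and 4 of the second genotype lay above all VHL-KO libraries, but replicate 3 lay below VHL-KO replicates 1 and 2. The log2 fold change was 0.92 (SE 0.60, adjusted p = 0.643, edgeR), and 0.55 (SE 0.49, adjusted p = 0.561) without VHL-KO replicate 4. A list of 6 endothelial markers ranked the libraries in nearly the same order, with VHL-KO replicates 1 and 2 exchanged. The summed level was 1428, 1678 and 1012 CPM under VHL-KO and 4040, 1287 and 3243 CPM under VHL-KO;SETD2-KO, with none of them at 0 in every library and 0 of 6 called by edgeR. Podocyte markers summed to 1301, 1761 and 1361 CPM against 4372, 1663 and 3878 CPM, also highest in replicates 2 and 4 of the second genotype, and 3 of 4 were called higher on the unadjusted p (median 1.29). The part of these cells in the Rsad2 values was not tested.

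Bst2 had 163, 153 and 411 counts under VHL-KO and 688, 294 and 392 under VHL-KO;SETD2-KO. In CPM these were 9.86, 14.1 and 38.4 against 36.5, 16.5 and 24.5. VHL-KO replicate 4 was the highest library of all 6, while replicates 1 and 2 were the lowest. The log2 fold change was 0.32 (SE 0.58, adjusted p = 0.849, edgeR). Without VHL-KO replicate 4 it was 1.11 (SE 0.37, unadjusted p = 0.0241, adjusted p = 0.187), or 2.16-fold, and without VHL-KO replicate 1 it was 0.0014. Bst2 also marks mouse plasmacytoid dendritic cells. Of 4 markers of those cells, Siglech and Ccr9 had 0 to 7 counts in each library and were not tested. Irf8 (log2 fold change -0.55, SE 0.51) and Tcf4 (0.96, SE 0.42), which other cells express too, pointed in opposite directions and were not called. The summed level of the 4 was 49.5 to 51.4 CPM under VHL-KO and 59.5 to 87.4 CPM under VHL-KO;SETD2-KO. Most of it came from Tcf4, except in VHL-KO replicate 4, where Irf8 had 27.9 CPM and Tcf4 21.4 CPM. The part of such cells in the Bst2 values was not tested.

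**Figure D3:**
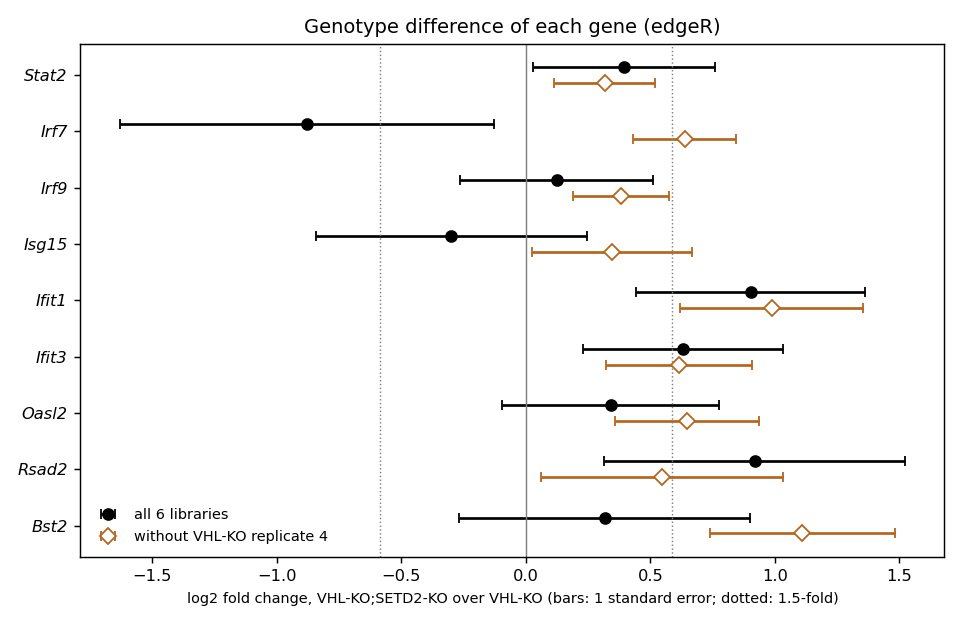
Log2 fold change of each of the 9 genes (VHL-KO;SETD2-KO over VHL-KO, x axis, with SE bars from edgeR) with all 6 libraries and without VHL-KO replicate 4. With all libraries the values run from -0.88 for Irf7 to 0.92 for Rsad2, and without that library all 9 are positive, from 0.32 for Stat2 to 1.11 for Bst2.

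Other immune cells could also carry these transcripts. The summed level of 4 leukocyte markers was 35.4 to 80.2 CPM under VHL-KO and 20.6 to 82.8 CPM under VHL-KO;SETD2-KO. Macrophage markers summed to 91.1 to 306 CPM and 64.8 to 208 CPM, and both ranges overlapped between genotypes. On the unadjusted p, 2 of 6 macrophage markers were called lower under VHL-KO;SETD2-KO, C1qa (-2.08) and C1qb (-2.03), beside 4.68% of all genes. The median of the 6 was -1.10. Without VHL-KO replicate 4 neither was called by edgeR (C1qa -0.94, unadjusted p = 0.144, and C1qb -1.10, unadjusted p = 0.131). Adgre1 was then called lower (-1.40, unadjusted p = 0.0421, adjusted p = 0.230), beside 7.15% of all genes, and the median was -0.76. T cell markers summed to at most 8.03 CPM and B cell markers to at most 22.9 CPM. None of these markers was at 0 in every library, and the part of such cells in the values of the 9 genes was not tested.

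The 9 genes did not rank the libraries alike. VHL-KO replicate 1 was the lowest library for 7 of them, and VHL-KO replicate 4 was the lowest for the other 2 and the highest for 4. After each gene was centred on its mean over the 6 libraries, the mean log2 CPM of the 9 genes was -0.56, -0.23 and 0.23 in VHL-KO replicates 1, 2 and 4. It was 0.38, -0.0023 and 0.18 in the VHL-KO;SETD2-KO libraries, in the order 2, 3 and 4. Within VHL-KO the libraries thus spanned a wider range than the means of the genotypes did. Within VHL-KO;SETD2-KO, replicate 3 lay below the other 2 for Rsad2 (log2 ratio -1.59) and Bst2 (-0.87) but above them for Ifit1 (0.63) and Ifit3 (0.46). It is also the library with 0 counts of Ddx3y. Its collecting duct markers summed to 283 CPM, against 80.4 and 84.2 CPM in replicates 2 and 4. Its thick limb markers summed to 2175 CPM, against 725 and 921, and its distal convoluted tubule markers to 2254.5 CPM, against 881 and 990. Its podocyte and endothelial sums were the lowest of its genotype. The part of any of these in its values was not tested.

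The position of VHL-KO replicate 4 moved with transcript length across all genes. Lengths from GENCODE vM21 were matched to 94.5% of the tested genes. The log2 ratio of this library to the mean of the other 2 VHL-KO libraries (with 0.5 CPM added) had a median of 0.89 in the tertile of genes with the shortest transcripts (up to 2258 bases). It was 0.024 in the middle tertile and -1.08 in the longest tertile (from 3982 bases). Among the 9 genes the ratio was highest for Irf7 (2.65, 2237 bases), Bst2 (1.64, 792 bases) and Isg15 (1.32, 756 bases). It was 0.73 for Oasl2 (3123 bases), 0.66 for Irf9 (2959 bases), 0.20 for Ifit1 (2656 bases) and -0.043 for Ifit3 (1745 bases). The 2 lowest were Stat2 at -0.24 (4397 bases) and Rsad2 at -1.57 (3782 bases). Irf7, Bst2 and Isg15 lie in the shortest tertile, as does Ifit3, whose ratio was close to 0. The cell markers of this library also differed, in both directions within the proximal tubule and thick limb lists. Whether length or cell content accounts for the ratios of these genes was not tested.

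**Figure D4:**
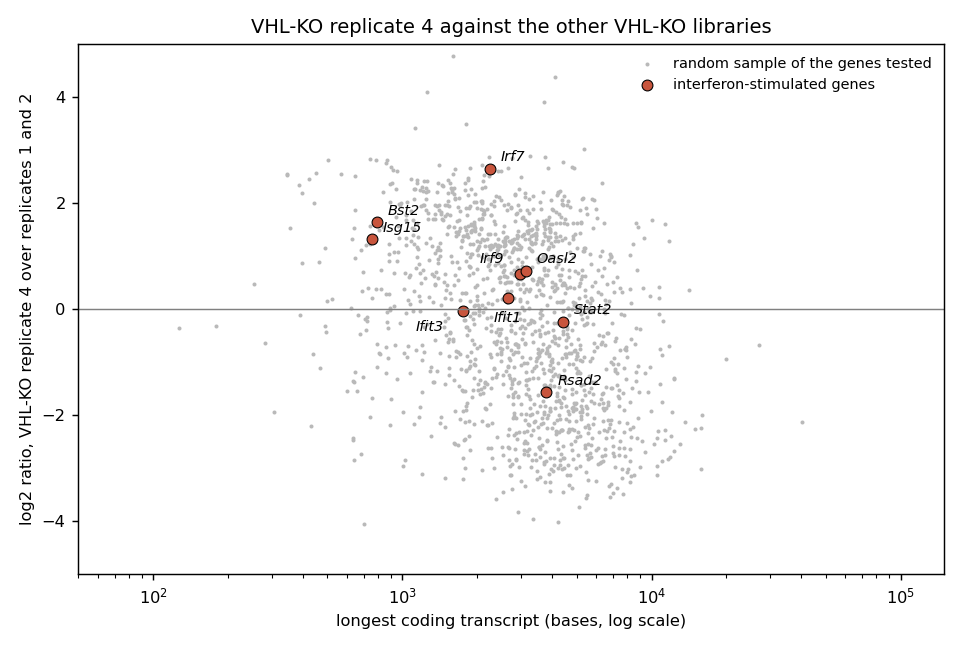
Log2 ratio of VHL-KO replicate 4 to the mean of VHL-KO replicates 1 and 2, with 0.5 CPM added (y axis), against the length of the longest coding transcript in bases (x axis, log scale), for a random sample of the tested genes (grey) and the 9 interferon-stimulated genes (red). Irf7, Bst2 and Isg15 lie at 1.32 and above, and Rsad2 at -1.57.

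Per kilobase of transcript, Bst2 had the highest mean level of the 9 genes, 26.2 ± 19.4 CPM per kilobase under VHL-KO and 32.6 ± 12.7 under VHL-KO;SETD2-KO (SD, n = 3 each). Ifit1 had the lowest, 1.04 ± 0.193 and 1.94 ± 0.572 CPM per kilobase. Under VHL-KO the order between them was Irf7 (10.1 ± 11.5), Irf9 (7.70 ± 2.27), Isg15 (7.23 ± 4.55), Stat2 (5.03 ± 0.885), Rsad2 (4.50 ± 2.28), Ifit3 (3.66 ± 0.483) and Oasl2 (2.73 ± 1.06). Apart from Oasl2 and Ifit1, neighbours in this order differed by less than the larger of their SDs. The order rested on VHL-KO replicate 4: without it the mean of Irf7 was 3.53 CPM per kilobase, which moved it from place 2 to place 7, and that of Bst2 was 15.1, still the highest. Under VHL-KO;SETD2-KO the order after Bst2 was Rsad2 (8.52 ± 4.36), Irf9 (8.39 ± 1.36), Stat2 (6.60 ± 1.01), Isg15 (5.85 ± 1.42), Ifit3 (5.66 ± 1.42), Irf7 (5.50 ± 0.827) and Oasl2 (3.45 ± 0.499). There the steps from Bst2 to Rsad2, from Irf9 to Stat2, from Irf7 to Oasl2 and from Oasl2 to Ifit1 exceeded the larger SD of each pair.

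The rest of the pathway was described by role. Of 10 interferon ligand genes, 9 had 0 counts in every library, which allows up to 3 counts in each. The exception, Ifng, had 11, 4 and 0 counts under VHL-KO and 8, 1 and 6 under VHL-KO;SETD2-KO, and no ligand gene had enough counts to be tested. All 6 receptor genes were tested, and none was called by edgeR, on the unadjusted or the adjusted p. Their log2 fold changes were 0.27 for Ifnar1 and 0.14 for Ifnar2, the type I receptor chains, 0.73 for Ifngr1 and -0.24 for Ifngr2, the interferon gamma receptor chains, and -0.82 for Ifnlr1 and 0.31 for Il10rb, the type III receptor chains. Ifngr1 was higher in each VHL-KO;SETD2-KO library than in any VHL-KO library, but its change was not called (SE 0.39, adjusted p = 0.625).

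Among 9 kinases and transcription factors of the pathway, 3 values were positive and 6 negative, with a median of -0.048, and the number called by edgeR was 0. The smallest p in this list was that of Irf5, a factor used downstream of Toll-like receptors, at -0.99 (SE 0.47, unadjusted p = 0.0673, adjusted p = 0.625). Of 12 nucleic acid sensors and their adaptors, 8 values were positive. One was called higher on the unadjusted p: Mb21d1, which encodes the cytosolic DNA sensor cGAS, had 13, 12 and 3 counts under VHL-KO and 36, 25 and 44 under VHL-KO;SETD2-KO. With all 6 libraries it had enough counts to be tested only through the VHL-KO;SETD2-KO libraries, where it is high, so its call is not support. Its log2 fold change was 1.47 (SE 0.63, unadjusted p = 0.0474, adjusted p = 0.625, edgeR), and without VHL-KO replicate 4 it was 1.10 and no longer called (SE 0.48, unadjusted p = 0.0613, adjusted p = 0.266). The call was also lost without VHL-KO replicate 1, without VHL-KO;SETD2-KO replicate 2, with RLE factors, with DESeq2 and with no filter on low counts. The RNA sensors Ddx58 (RIG-I), Ifih1 (MDA5) and Tlr3 had values of 0.64, 0.85 and 0.92, which were not called. Of 7 negative regulators, 3 values were positive and the number called was 0. Their median was -0.28, and 0.039 without VHL-KO replicate 4.

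The list most like the 9 genes holds 35 other antiviral effectors, of which 33 were tested. Of these, 23 values were positive and 10 negative, with a median of 0.48. Mx2, an interferon-induced dynamin-like GTPase, was the effector called higher on the unadjusted p, and the number called lower was 0. It had 11, 8 and 7 counts under VHL-KO and 37, 27 and 50 under VHL-KO;SETD2-KO, so the groups did not overlap. With all 6 libraries, and without VHL-KO replicate 4, it had enough counts to be tested only through the VHL-KO;SETD2-KO libraries. It is high in these, so its call is not support. Its log2 fold change was 1.68 (SE 0.54, unadjusted p = 0.0135, adjusted p = 0.625, edgeR). Leaving out VHL-KO;SETD2-KO replicate 4 ended this call and that of Mb21d1, and so did the fit with a replicate block. Ifi44 (1.59, SE 0.73), Rtp4 (0.94, SE 0.43) and Sp100 (1.00, SE 0.47) followed by p and were not called by edgeR. Ifi44 was called higher on the unadjusted p by DESeq2 (1.55), by limma-voom (2.04), and by edgeR with no filter on low counts (1.61) or with a replicate block (2.85), with an adjusted p of 0.692 in limma-voom and 0.755 with no filter. Separated groups were seen for 6 of the 33, all higher under VHL-KO;SETD2-KO, beside 9.62% of all tested genes higher and 11% lower.

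Without VHL-KO replicate 4, 29 of the 33 effector values were positive, with a median of 0.64. Then 12 were called higher on the unadjusted p and 0 lower, beside the 8.29% and 7.15% of all genes given above, and 0 were called on edgeR's adjusted p. The 12 were Ifi27 (log2 fold change 0.75), Ifi35 (0.67), Ifi44 (1.08), Ifit2 (0.71), Ifitm2 (0.96), Lgals3bp (0.62), Mx2 (1.65), Oas2 (1.86), Parp12 (0.77), Rtp4 (0.90), Uba7 (0.64) and Xaf1 (0.98). The smallest adjusted p among them was 0.0810, for Ifitm2, a membrane protein that blocks virus entry. Groups did not overlap for 17 of the 33 as higher and for 1 as lower, beside 20.5% and 21.2% of all genes.

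**Figure D5:**
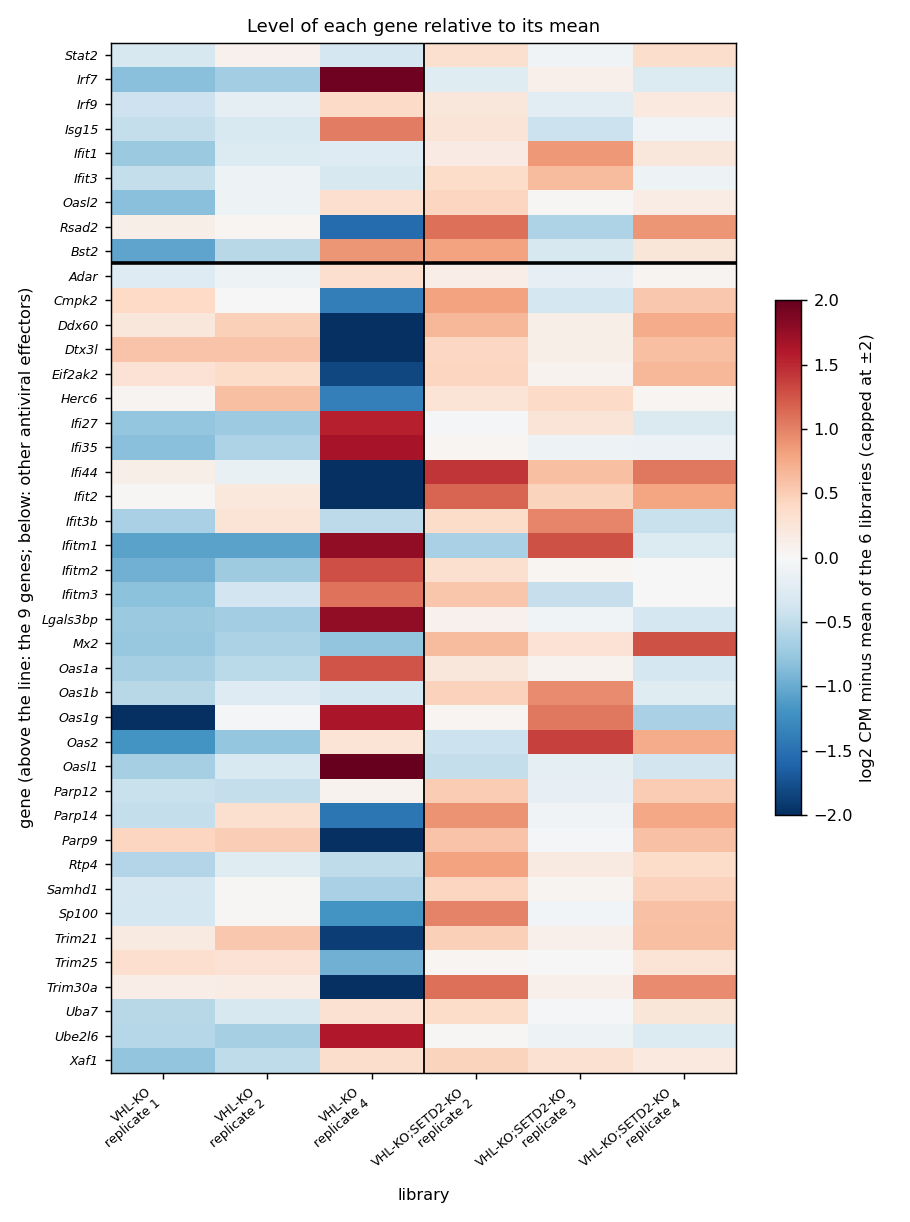
Log2 CPM of each of the 9 genes (above the line) and of the other antiviral effectors (below it) minus its mean over the 6 libraries, capped at 2 in either direction, with a row per gene and a column per library. VHL-KO replicate 4 holds the highest level for 11 and the lowest for 15 of the 33 effectors tested, and VHL-KO replicate 1 the lowest for 15.

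A pair of gene groups that respond more to interferon gamma was set beside these. Of 13 interferon-induced GTPase genes, which act against pathogens in vacuoles, 12 were tested. Of these, 9 values were positive with a median of 0.42 and the number called by edgeR was 0, with 0.24 as the median without VHL-KO replicate 4. Gbp9 (1.10), Gbp3 (0.94), Gbp5 (0.82) and Gbp7 (0.75) had the smallest p-values. Of 10 genes of class I antigen presentation, 5 were tested and all 5 values were negative, with a median of -0.55 and 0 called. The heavy chain gene H2-D1 had 0 counts in every library, and Psmb8, Psmb9, Tap1 and Tap2 had too few to be tested with all 6 libraries. Whether reads of these genes were counted in full was not tested. Without VHL-KO replicate 4 that median was 0.37, and H2-K1, a class I heavy chain, was called higher on the unadjusted p at 1.06. For all 102 other pathway genes together, 84 were tested. With all 6 libraries 2 (Mb21d1 and Mx2) were called higher and 0 lower, beside 2.66% and 4.68% of all genes, so the share of higher calls was near that of all genes. Groups were separated for 12 as higher and 0 as lower, beside 9.62% and 11%. Without VHL-KO replicate 4, 64 of 84 values were positive. Then 13 were called higher and 0 lower on the unadjusted p, beside 8.29% and 7.15% of all genes. Separated groups were 30 higher and 1 lower, beside 20.5% and 21.2%.

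The genes outside the 9 whose pattern lay closest to their mean pattern were found among 12390 tested genes with a mean log2 CPM of at least 1, by the mean absolute difference in centred log2 CPM over the 6 libraries. The closest was Uba7 (0.0477), which encodes the activating enzyme for ISG15 conjugation, with 9.56, 11.3 and 17.4 CPM under VHL-KO and 18.2, 13.7 and 16.8 CPM under VHL-KO;SETD2-KO. Laptm4a (0.0480), Ppp1r13b (0.0626), Cenpt (0.0699) and Vsig10 (0.0726) followed. The 9 genes themselves lay 0.103 (Oasl2) to 0.793 (Rsad2) from their own mean. With 6 libraries this measure rests on few points and is a description.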

How the data were processed

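RNA-seq libraries of PTECs from 6 mice were analysed, grouped by the sample labels. The authors extracted RNA, made directional paired-end Illumina libraries and deposited raw read counts per gene symbol. The submitters' processing notes name HISAT2 2.0.4 and GRCm38; the counting program, its annotation and its use of strand are not given in the sources used here. All per-sample columns were used (0 left over). The 9 genes and all gene lists were chosen with earlier results of these data known.

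Counts were scaled by TMM, and 14611 of 46095 genes passed filterByExpr. The quasi-likelihood test of edgeR 4.0.16 (R 4.3.3) was applied to these, with no term other than the genotype label, with Benjamini-Hochberg adjustment over all tested genes. The study's thresholds (p under 0.05, 1.5-fold) do not say whether p is adjusted, so both were used. Log2 CPM used a prior count of 2. A figure legend of the study gives 3 mice per group for the sequenced cells, and its methods give a larger n for the isolation of PTECs. Genes named were the 9, Setd2 and Vhl, up to 4 genes per list with the smallest p, all genes of lists under 7 genes, marker genes and the 5 with the closest pattern; Ddx3y, Ifng, Ifit3b and the effectors called without VHL-KO replicate 4 were chosen after their values were seen.

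Alternatives were RLE factors, library sizes without mitochondrial genes, DESeq2 1.42.0, limma-voom (limma 3.58.1), other filters, a replicate block, a 2-fold threshold, a prior count of 0.5 and leaving out each library. DESeq2 with VHL-KO replicate 4 left out, limma-voom with sample quality weights and levels per kilobase without that library were added after seeing the data. Fits were tested on simulated data. The floor of 3 counts covers counting error only.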

Additional observations from a re-analysis of the deposited data

How the results depend on the processing

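Of 452 values recomputed under the alternatives, 374 kept their direction and side of the threshold (or, for a count or a value with no test, stayed close to it), and 24 changed sign, 7 of them among 135 values of the 9 genes. Irf7 was 0.64 without VHL-KO replicate 4 by edgeR, 0.63 by DESeq2 and 0.52 with limma-voom quality weights, and Isg15 was 0.35, 0.34 and 0.44 in the same settings. With one library left out, Irf7 ranged from -1.27 to 0.64, Isg15 from -0.55 to 0.35 and Irf9 from -0.019 (without VHL-KO replicate 1) to 0.38. The cause of these changes was not tested. Limma-voom and the block moved the median of all genes to 0.13 and 0.11.

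The number of the 9 genes called higher on the unadjusted p was 1 (Ifit1) with at least 10 counts in every library, 0 to 3 with a library left out, 3 by DESeq2 with VHL-KO replicate 4 left out and 4 with quality weights, which gave that library a weight of 0.0376 and the others 0.458 to 3.62. With quality weights 2 were called on limma's adjusted p, Bst2 (0.0120) and Oasl2 (0.0483). Under these weights 2125 of all 14611 tested genes were called higher on the unadjusted p and 1453 on the adjusted p. By DESeq2 with VHL-KO replicate 4 left out, 1425 of 15000 were called higher on the unadjusted p. Over all genes, unadjusted higher calls were 634 with no filter, 1425 by DESeq2 with that library left out, 2125 with quality weights and 179 to 1243 with a library left out; lower calls were 1133 by DESeq2 on all libraries, 1093, 1527 and 206 to 1078. Adjusted higher calls were 1 by DESeq2, 534 by DESeq2 without that library and 1453 with quality weights, and lower calls were 50, 704 and 1205, with 2 under no filter, 0 with at least 10 counts and 0 to 1 with a library left out.

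Other pathway genes called higher were 1 with RLE factors, 1 with at least 10 counts, 0 to 13 with a library left out, 14 by DESeq2 without VHL-KO replicate 4 and 21 with quality weights; lower were 1 with no filter, 0 to 3 and 2. Adjusted, 5 were higher by DESeq2 without that library, and 16 higher and 1 lower with quality weights. The median of kinases and transcription factors was 0.0085 with no filter, 0.064 by DESeq2 without that library, 0.13 with quality weights and -0.23 to 0.069 with a library left out. That of negative regulators was 0.078 by limma-voom, 0.099 with at least 10 counts, 0.032 by DESeq2 without that library, 0.15 with quality weights and -0.32 to 0.20 with a library left out. That of class I genes was 0.36, 0.27 and -1.15 to 0.37 in the last 3 of these.

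Replicate numbers 2 and 4 occur under both labels, but the deviations of same-numbered libraries correlated at 0.165 and -0.319, so the numbers are not taken to pair mice. When the fit held a block for this number, 93 genes were called higher and 54 lower on the unadjusted p, 1 of them another pathway gene called higher, and the medians of kinases and transcription factors and of negative regulators were 0.037 and 0.28. Depth limits the lowest genes: Ifit1 rests on 33 to 123 counts per library and Isg15 on 40 to 104.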

Other observations

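The immunoproteasome subunit gene Psmb9, which interferons induce, had 6, 12 and 23 counts in VHL-KO replicates 1, 2 and 4 and 0 in each VHL-KO;SETD2-KO library. At the floor of 3 counts per library its mean was at least 7.02-fold lower under VHL-KO;SETD2-KO, or at least 4.28-fold without VHL-KO replicate 4. It was chosen after its values were seen, and with all 6 libraries it had too few counts to pass the filter. With no filter it was called lower on edgeR's unadjusted p (0.000133). It also entered the fits without VHL-KO replicate 1 and without each VHL-KO;SETD2-KO library in turn. There it passed the filter through VHL-KO libraries alone, where it is high, so the lower calls in those fits are not support. With every count at 0 under VHL-KO;SETD2-KO, no finite fold change could be fitted. The adjusted p of Psmb9 in these fits was 0.554 to 0.982. Its neighbours in the class II region had few counts too, and the class I heavy chain gene H2-D1 had 0 in every library. Whether reads of these genes were counted in full was not tested, so the bound on Psmb9 applies to counts only. Psmb8 had 0, 0 and 4 counts against 1, 2 and 0, and Tap1 had 1, 2 and 7 against 3, 9 and 5. Tap2 had 4, 13 and 22 against 8, 6 and 3, with means of 1.17 and 0.316 CPM and groups that overlapped. Without VHL-KO replicate 1 it was called lower on edgeR's unadjusted p (log2 fold change -2.33, adjusted p = 0.576). It passed the filter there through VHL-KO replicates 2 and 4 alone, where it is high, so that call is not support either.

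The other antiviral effectors split in VHL-KO replicate 4. Of the 33 tested, 10 were at least 2-fold higher there than in the mean of VHL-KO replicates 1 and 2 (Ifi27, Ifi35, Ifitm1, Ifitm2, Ifitm3, Lgals3bp, Oas1a, Oas1g, Oasl1 and Ube2l6), and their longest coding transcripts had 655 to 2330 bases with a median of 1461. Another 13 were at least 2-fold lower (Cmpk2, Ddx60, Dtx3l, Eif2ak2, Herc6, Ifi44, Ifit2, Parp14, Parp9, Sp100, Trim21, Trim25 and Trim30a), with transcripts of 2708 to 7417 bases and a median of 3818. The ranges of length of these classes did not overlap. The other 10 effectors, which lay between these limits, had transcripts of 1832 to 5909 bases with a median of 2896. That range overlapped those of both classes. Genes were sorted here by the value being described, so no test was made.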
